A study of Carthamus tinctorius with 15 samples.

Results

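RNA sequencing was used to compare root with leaf in safflower (Carthamus tinctorius), a plant of the daisy family grown for seed oil and florets, with 3 root libraries and 3 leaf libraries. The comparison covers the 19656 of 33242 rows of the deposited table that reached 1 FPKM or more in at least 3 of these 6 libraries. FPKM is the number of reads of a gene per kilobase of its length, divided also by the read total of the library. The labels give the tissue and a replicate number, but no cultivar, age, growth condition or treatment, and nothing in them says that replicates are separate plants. P-values therefore rest on library-to-library spread, which could be technical only. The same study also holds 3 libraries each of stem and flower, which are used below to describe the same genes, and 3 libraries of seed at the stage labelled 6d, which were not analysed here. The title of the study concerns oil formation in seeds, and no stated question is tied to root against leaf.

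A root takes up water and mineral nutrients, anchors the plant and lives on sugars delivered by the shoot. A leaf is the main site of photosynthesis, and nuclear genes for chloroplast proteins are among the most strongly transcribed genes of green tissue. A stem connects these organs by vascular tissue and is often green itself. The table used pairs no row with a gene name or identifier, so the labelled tissues were not checked against marker genes and no gene below is given a function. A gene is called by its row number, with the first line of values as row 1. The length given with it was recovered from its FPKM values. No sequence is shown, because the rows carry no names by which one could be looked up.

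All 3 leaf libraries were somewhat deeper than the 3 root libraries. Recovered totals were 27813826, 26183138 and 29184532 reads in root, and 30929338, 31500664 and 31413298 in leaf. A read of a gene 1 kilobase long was worth 0.0343 to 0.0382 FPKM in root and 0.0317 to 0.0323 FPKM in leaf. Replicates of a tissue correlated at Spearman 0.9915 to 0.9921 in the 6 pairs, across genes, which are not independent replicates. The median SD between replicates on the log2(FPKM + 1) scale was 0.0879 in root and 0.0877 in leaf. Replicates varied by 3.63 to 3.99 times the variance that Poisson counting gives, so no library was a copy of another within sampling noise.

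Root replicate 3 stood apart from the other root libraries in one respect. The genes concerned are those called higher in leaf that averaged 1000 FPKM or more there, 57 in number. Their level in root, as a percentage of their leaf mean, had a median of 0.105% in root replicate 1, 0.0795% in replicate 2 and 0.241% in replicate 3. Root replicate 3 was the highest root library for 50 of the 57 genes. The lowest of the 57 values was 0.0912% in root replicate 3, against 0.00281% in replicate 1 and no read in replicate 2. Of the 44 of them that averaged under 10 FPKM in root replicates 1 and 2, 43 were highest in replicate 3, at a median of 3.27 times the mean of the other two. The excess of replicate 3 over the mean of replicates 1 and 2 had a median of 0.122% of the leaf level in these 57 genes. In wider sets that include them, it was 0.118% over the 608 leaf-higher genes of at least 100 FPKM in leaf and 0.113% over all 3407 leaf-higher genes. Median levels of the 608 genes in root replicates 1, 2 and 3 were close, at 4.67%, 4.74% and 4.72%. For the 29 root-higher genes of at least 1000 FPKM in root, levels in leaf were taken as a percentage of the root mean. Their medians in leaf replicates 1, 2 and 3 were close, at 19.4%, 19.3% and 19.2%. Leaf replicate 3 had a median excess of 0.221% of the root level in these genes. It was the highest leaf library for 17 of these 29. That excess was 0.0178% over the 692 root-higher genes of at least 100 FPKM and 0 over all 4241. Counts of calls, and the root means of the 12 genes with the largest differences towards leaf, are given below with and without root replicate 3. The cause was not tested.

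**Figure D1:**
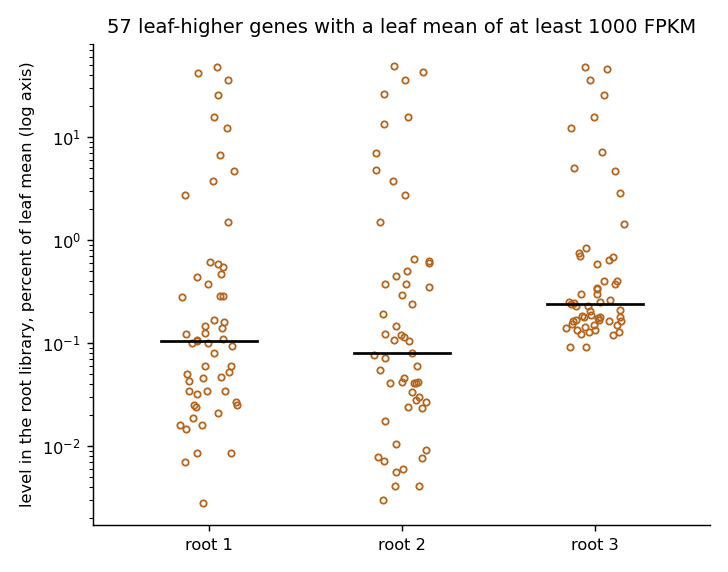
Level of the 57 leaf-higher genes with a leaf mean of at least 1000 FPKM in each root library, as a percentage of the leaf mean on a log axis. Each circle is a gene and each black line the median of a library. The circles of root 3 lie at 0.0912% or above, while those of root 1 and root 2 reach far lower, and the gene with no read in root 2 is not drawn there.

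Root and leaf differed in a large part of the genes compared. By limma on log2(FPKM + 1), 7648 of 19656 genes were called, which is 38.9%, by a difference of 1 or more and a Benjamini-Hochberg adjusted p under 0.05. Of these, 4241 (21.6% of the genes compared) were higher in root and 3407 (17.3%) were higher in leaf. All differences below are root minus leaf on this scale, which understates the change of genes at low levels. The 3 root and 3 leaf values did not overlap for 16385 genes, or 83.4%. More genes were thus without overlap than were called. This count used FPKM as deposited, where the median gene differed by 0.31. The median SD between replicates was 0.0879 in root and 0.0877 in leaf, so a shift common to most genes can part the values. Without any difference, 3 against 3 values part with a probability of 0.1. Without root replicate 3, 7661 genes were called, 4236 higher in root and 3425 higher in leaf.

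The balance between root and leaf calls depended on how libraries were put on a common scale. The median gene differed by 0.31, so FPKM as deposited sit lower in leaf than in root for the typical gene. After scaling by median ratios, with factors of 1.13 to 1.15 in root and 0.884 to 0.886 in leaf, the median difference was -0.01. Then 2881 genes were called higher in root and 4102 higher in leaf, so the share of calls higher in root was 41.3% in place of 55.5%. No gene was called in opposite directions under these scalings. All 3407 genes called higher in leaf from the deposited values were called so again, and 2881 of the 4241 higher in root were. The factors lower root values and raise leaf values, which moves differences towards leaf. The repeat of leaf calls and the lack of opposite calls were thus almost fixed in advance and support neither scale. Which tissue held more called genes thus depended on the scaling.

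**Figure D2:**
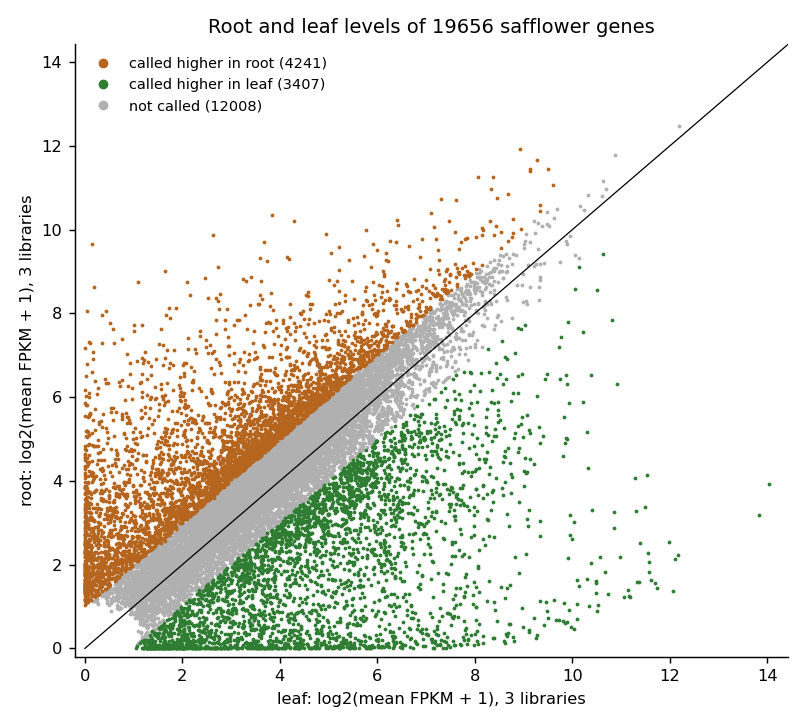
Mean level of each of 19656 genes in root (vertical) and leaf (horizontal), as log2(mean FPKM + 1) over 3 libraries, with the line of equal levels in black. Brown points were called higher in root (4241), green points higher in leaf (3407) and grey points were not called (12008); the green points reach further from the line than the brown ones, and the green point furthest to the right is row 29089, at 14.2 FPKM in root and 16768 FPKM in leaf.

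Large differences lay more often on the leaf side under both scalings. A difference of 2 or more was reached by 1438 genes higher in root and 1889 higher in leaf. At 4 or more these numbers were 285 for root and 696 for leaf, and at 6 or more 41 and 232. At 8 or more, 3 genes were higher in root and 72 in leaf, and at 10 or more, none were higher in root and 13 in leaf. With median-ratio scaling, which moves differences towards leaf, 232 genes higher in root and 824 higher in leaf reached 4, and 2 and 78 reached 8. Leaving out root replicate 3 gave 3 genes higher in root and 75 higher in leaf at 8 or more, and 19 higher in leaf at 10 or more. The median size of a called difference was 1.59 for genes higher in root and, in the other direction, -2.18 for genes higher in leaf. All counts by size depend on the 1 added to FPKM, which shrinks differences of genes near 0 in the lower tissue. With 0.1 added in its place, rows 13633, 30611, 5243, 30568 and 30566 differed by 11.93, 11.03, 10.90, 10.49 and 10.12 towards root. On the leaf side, row 9665 then differed by -12.19. Size classes were not counted on that scale.

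**Figure D3:**
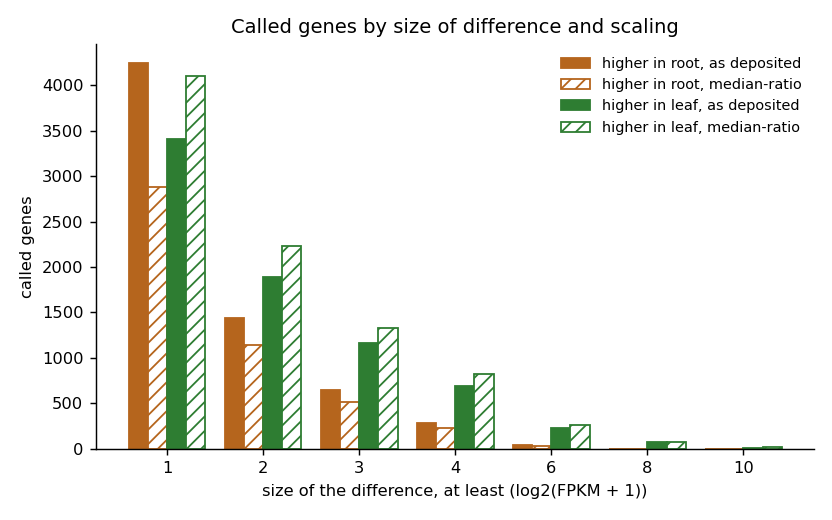
Number of called genes (vertical) whose difference is at least the size on the horizontal axis, in log2(FPKM + 1), with brown for higher in root and green for higher in leaf. Filled bars use FPKM as deposited and hatched bars median-ratio scaling; root leads only at a size of 1 and only as deposited (4241 against 3407), and leaf leads from a size of 2 on (1438 in root against 1889 in leaf).

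The genes higher in root were of moderate level in leaf, while the genes higher in leaf were mostly low in root. Genes called higher in root had a median of 25.7 FPKM in root and 5.85 FPKM in leaf. Genes called higher in leaf had a median of 2.59 FPKM in root and 25.9 FPKM in leaf. Genes not called had medians of 14.4 FPKM in root and 12.5 FPKM in leaf. Recovered lengths were alike, with a median of 1333 bases for genes higher in root, 1280 bases for genes higher in leaf and 1425 bases for genes not called.

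A large part of the expression of each tissue lay in the genes called on its own side. The 4241 genes higher in root held 40.2%, 40.2% and 40.1% of the FPKM of the root libraries, against 9.63%, 9.66% and 9.64% of the leaf libraries. The 3407 genes higher in leaf held 3.67%, 3.67% and 3.79% of FPKM in root, against 46.2%, 46.1% and 46.1% in leaf. These genes were chosen by the same values, so the shares are a description and carry no test. Among them, the 57 genes of at least 1000 FPKM in leaf held 0.373% ± 0.0184 of FPKM in root and 18.1% ± 0.0967 in leaf (SD, n = 3 each). The 29 root-higher genes of at least 1000 FPKM in root held 6.52% ± 0.0242 of FPKM in root and 1.26% ± 0.00927 in leaf (SD, n = 3 each).

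**Figure D4:**
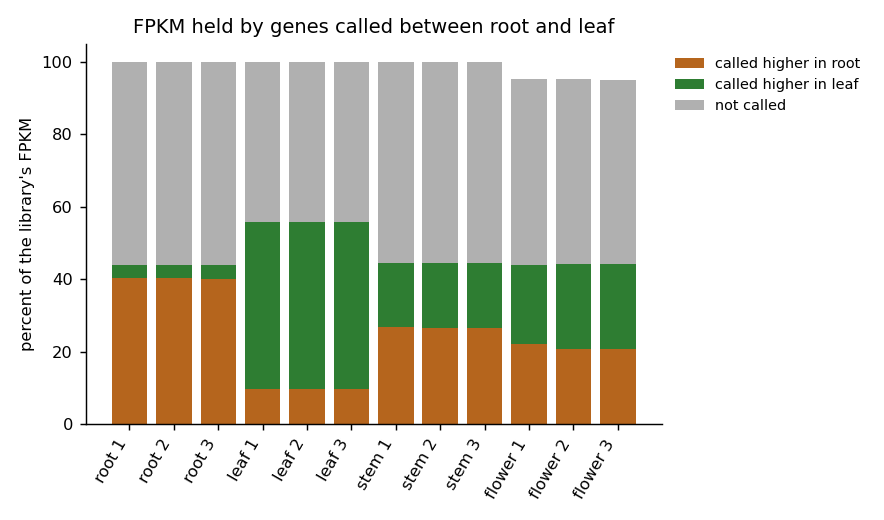
Percentage of each library's FPKM (vertical) held by genes called higher in root (brown), called higher in leaf (green) and not called (grey), in 3 libraries each of root, leaf, stem and flower. Brown takes about 40.2% of root and 9.64% of leaf, and green 3.71% of root and 46.1% of leaf; what is missing to 100% in flower lies in rows that did not reach the minimum in root and leaf.

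Fewer genes made up the bulk of expression in each leaf library than in each root library. The highest genes that together held 50% of FPKM numbered 1161, 1149 and 1175 in the root libraries, against 826, 833 and 820 in the leaf libraries. Counted by reads, without division by length, the numbers were 1336, 1323 and 1348 in root, against 973, 981 and 972 in leaf. Every root library lay above every leaf library by both measures. A two-sided exact permutation test gave p = 0.1 for each, the smallest that 3 libraries against 3 allow, so this design cannot pass 0.05. At 1000 FPKM or more there were 46 rows in each root library and 68 in each leaf library. At 100 FPKM or more the order was the other way, with 1518, 1527 and 1515 rows in root, against 1348, 1346 and 1339 in leaf.

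The direction of the calls differed between level classes. Among the 51 genes that averaged 1000 FPKM or more over the 6 libraries, 13 were called higher in root and 27 higher in leaf. From 100 to 1000 FPKM, 406 of 1434 genes were higher in root and 327 higher in leaf. From 20 to 100 FPKM, 1463 of 6342 were higher in root and 1114 in leaf. From 5 to 20 FPKM, 1395 of 7471 were higher in root and 1148 in leaf. Below 5 FPKM, 964 of 4358 genes were higher in root and 791 in leaf. Calls higher in root thus outnumbered those higher in leaf in each class but the highest, on the scale of the deposited FPKM.

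The gene with the largest difference towards root was row 13633 (303 bases). It had 804, 794 and 815 FPKM in the root libraries, against 0.107, 0.105 and 0.105 FPKM in the leaf libraries, where each library held a single read. The groups were far apart, and the 3 leaf reads set the precision. The ratio of root over leaf was 7628, with a counting interval from 2610 to 36990 (exact binomial, 95%, counting error only). The fitted difference was 9.51 (SE 0.041, limma adjusted p = 6.54e-11). Stem stood between them, with 29.3, 25.8 and 36.0 FPKM, and flower was near 0, with 0.108, 0.112 and 0 FPKM.

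Row 5243 (695 bases) had 390, 390 and 410 FPKM in root, against 0, 0.137 and 0.275 FPKM in leaf. All of its 9 leaf reads came from leaf replicates 2 and 3. Row 30611 (978 bases) had 266, 262 and 262 FPKM in root, against 0, 0 and 0.0976 FPKM in leaf, where 3 reads were found in leaf replicate 3 alone. Its ratio of root over leaf was 8052, with a counting interval from 2755 to 39047. In flower, row 5243 was low but above its leaf level, at 2.38 ± 0.26 FPKM, and row 30611 was near 0, at 0.08 ± 0.054 FPKM (SD, n = 3 each). They also parted in stem, where row 5243 had 20.5 FPKM and row 30611 only 0.187 FPKM on average.

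Row 30568 (351 bases) had no read in leaf. It had 147, 139 and 146 FPKM in root, from 4213 reads. A count of 0 allows up to 3 reads over the 3 leaf libraries, so root was at least 1584-fold higher. Row 30566, also of 351 bases, had 156, 153 and 163 FPKM in root, against 0, 0 and 0.181 FPKM in leaf. Those were 2 leaf reads, which gives a ratio of root over leaf of 2598, with a counting interval from 719 to 21456. Row 5303 (909 bases) had 160, 168 and 142 FPKM in root, against 0.0711, 0.0698 and 0.105 FPKM in leaf, and no read in any stem library.

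The other 6 of the 12 genes with the largest differences towards root kept a low but countable level in leaf. Row 30572 (1191 bases) had 433, 426 and 433 FPKM in root, against 0.977, 1.25 and 1.18 in leaf. Row 25636 (1026 bases) had 512, 498 and 528 FPKM in root, against 2.02, 2.07 and 2.23 in leaf, and its stem level of 0.112 FPKM was below that of leaf. Row 23698 (562 bases) had 935, 957 and 903 FPKM in root, against 5.58, 4.18 and 5.72 in leaf, with a stem level of 592 FPKM. Rows 5701, 30081 and 32620 averaged 266, 247 and 219 FPKM in root, against 0.343, 0.271 and 0.433 FPKM in leaf. The 12 differences ran from 7.18 to 9.51 with a largest limma adjusted p of 1.53e-09. These 12 genes were picked for large differences and for values that do not overlap. Their separation and p-values are therefore a description and support nothing further.

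The 12 genes with the largest differences towards leaf reached higher levels than any of those. They were picked by the same rule, so their separation and p-values are a description too. Row 20605 (842 bases) had 2.31, 2.54 and 19.3 FPKM in root, against 14518, 14380 and 14580 FPKM in leaf. Its difference was -11.19 (SE 0.642, limma adjusted p = 1.52e-06), and it made up 1.84% of leaf FPKM. The leaf level was 1802-fold higher than the root mean, and 5982-fold higher without root replicate 3. Its root mean was 8.05 FPKM, and 2.42 FPKM without that library. In stem it averaged 961 FPKM, between root and leaf.

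Row 29089 (1057 bases) was the most abundant gene of leaf. It had 5.71, 6.9 and 29.9 FPKM in root, against 17063, 16598 and 16644 FPKM in leaf, where it held 2.13% of all FPKM. The leaf level was 1183-fold higher than the root mean, and 2658-fold higher without root replicate 3. Row 30133 (295 bases) had 0.366, 0.388 and 3.95 FPKM in root, against 4278, 4279 and 4238 FPKM in leaf. Its leaf level was 2720-fold higher than the root mean, and 11312-fold higher without root replicate 3.

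Rows 9663 and 9665 stand 2 places apart in the table and both measure 546 bases. Row 9663 had 0.922, 0.14 and 4.14 FPKM in root, against 3469, 3246 and 3480 FPKM in leaf. Row 9665 had 0.198, 0 and 3.89 FPKM in root, against 2306, 2274 and 2311 FPKM in leaf. Both were low in stem, at 26.4 FPKM for row 9663 and 43.7 FPKM for row 9665, whereas the other 10 genes had stem means of 240 FPKM or more. If reads are shared between such rows, their separate levels are uncertain, since the treatment of shared reads is not stated in these sources.

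The other 7 genes of this group were rows 12035, 554, 4714, 1348, 25164, 19556 and 14518, with leaf means from 2119 FPKM (row 25164) up. Row 12035 (1615 bases) had 0.534, 0.26 and 5.09 FPKM in root, against 3324, 3288 and 3316 FPKM in leaf. Row 4714 (808 bases) had 2.31, 1.09 and 7.63 FPKM in root, against 4623, 4626 and 4640 FPKM in leaf. Row 19556 (2119 bases) had 2.09, 1.8 and 6.39 FPKM in root, against 4377, 4408 and 4413 FPKM in leaf. Row 554 (1724 bases) had 0.792, 0.753 and 4.77 FPKM in root, against 3148, 3113 and 3168 FPKM in leaf.

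The root means of these genes rest on root replicate 3. The root mean was 14.2 FPKM for row 29089, and 6.31 without that library. It was 1.57 FPKM for row 30133, and 0.377 without it. For row 9663 it was 1.73 FPKM, and 0.531 without it, and for row 9665 1.36 FPKM, and 0.0988 without it. All 4 of these genes stayed far below their leaf levels either way. Row 12035 had a root mean of 1.96 FPKM, and 0.397 without it, and row 554 one of 2.11 FPKM, and 0.773 without it. Row 4714 had 3.68 FPKM, and 1.7 without it, and row 19556 3.43 FPKM, and 1.94 without it. Row 19556 had the smallest ratio between these 2 means among the 12 genes. Rows 1348, 25164 and 14518 had leaf means of 2308, 2119 and 2261 FPKM. In root, row 1348 averaged 1.32 FPKM, and 0.491 without replicate 3. Row 25164 averaged 1.34 FPKM in root, and 0.261 without it, and row 14518 averaged 1.65 FPKM, and 0.366 without it. In all 12 genes root replicate 3 was the highest root library, from 3.28 to 39.4 times the mean of the other two. All 12 had a mean in stem between those of root and leaf, as had 10 of the 12 genes with the largest differences towards root. Genes picked for such distant root and leaf means leave a wide range of stem values between them. The share over all genes was not counted, so these counts say little about stem.

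**Figure D5:**
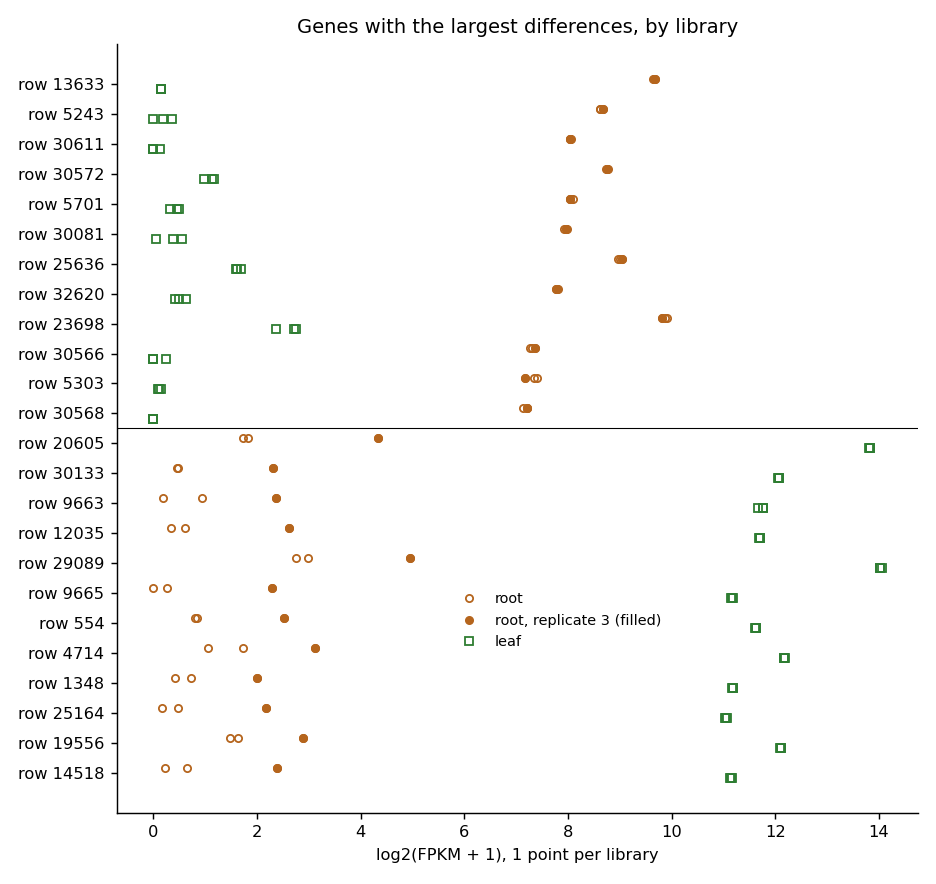
Level of the 12 genes with the largest differences towards root (upper part) and of the 12 towards leaf (lower part), as log2(FPKM + 1), with a point for each root library (circles) and each leaf library (squares). Filled circles are root replicate 3, which lies close to the other root values in the upper part and above both other root values in all 12 genes of the lower part.

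Some genes averaged 10 FPKM or more in both tissues and were still far apart. Medians over all genes compared were 13.1 FPKM in root and 12.1 FPKM in leaf, so this minimum is an ordinary level. Among genes with at least 10 FPKM in the lower tissue, row 20891 (776 bases) had the largest difference towards root. It had 1293, 1276 and 1330 FPKM in root, against 12.2, 13.1 and 14.5 FPKM in leaf, a 97.9-fold ratio. Row 4422 (477 bases) averaged 827 ± 11.5 FPKM in root and 11.7 ± 1.76 FPKM in leaf, and row 27385 (543 bases) 1175 ± 12.9 FPKM in root and 18.6 ± 0.952 FPKM in leaf (SD, n = 3 each). On the leaf side stood row 23559 (338 bases), row 5026 (916 bases) and row 29089, whose root mean of 14.2 FPKM was 6.31 FPKM, below that minimum, without root replicate 3. Row 5026 had 15.3, 15.1 and 17 FPKM in root, against 2499, 2481 and 2501 FPKM in leaf, and root replicate 3 was only 1.12 times the mean of the other two. Row 23559 had 12.9, 14.8 and 22.2 FPKM in root, against 2967, 2896 and 2972 FPKM in leaf.

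The most abundant genes of root were shared with leaf to a varying degree. Row 26099 (158 bases) was the highest in root and among the 5 highest in leaf. It had 6376, 5535 and 5231 FPKM in root, against 4606, 4070 and 5233 FPKM in leaf. The tissues overlapped, and its difference of 0.30 (SE 0.101, limma adjusted p = 0.0247) missed the minimum of 1 and was -0.06 with median-ratio scaling. Row 5282 (183 bases) had 3485, 3556 and 3442 FPKM in root, against 1916, 1859 and 1896 FPKM in leaf, a difference of 0.89 that also missed the minimum. Row 3108 (441 bases) had 3871, 3925 and 3913 FPKM in root, against 475, 478 and 496 FPKM in leaf. Row 2393 (708 bases) averaged 3230 ± 29 FPKM in root and 622 ± 3.05 FPKM in leaf, and row 19943 (1173 bases) 2807 ± 24.8 FPKM in root and 727 ± 3.26 FPKM in leaf (SD, n = 3 each). Row 3108, row 2393 and row 19943 were called higher in root.

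For a large number of genes the difference was held within a bound. The 95% interval of the difference lay within 1 on either side of 0 for 9947 genes, or 50.6%, and within 0.5 for 3760 genes, or 19.1%. Another 2061 genes (10.5%) were neither called nor bounded in this way. The bound of 1 still admits clear differences, such as that of row 5282, with an interval from 0.845 to 0.927. With median-ratio scaling, 10852 genes lay within 1 and 5064 within 0.5. With 0.1 in place of 1 added to FPKM, these numbers were 8755 and 3043. Among genes that averaged 100 FPKM or more, row 22369 (32 bases) had the smallest difference, with 253, 241 and 285 FPKM in root, against 258, 248 and 273 FPKM in leaf. Its level rests on 693 reads in root and 779 in leaf, divided by a very short recovered length. Row 5395 (2553 bases) had 313, 319 and 314 FPKM in root, against 314, 317 and 316 FPKM in leaf. Row 24372 averaged 160 FPKM in root and 160 FPKM in leaf, and row 16991 152 FPKM in root and 151 FPKM in leaf. On the median-ratio scale these 4 genes would lie 0.35 to 0.37 lower in root, so equal FPKM is itself a statement about the scale.

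Reads in a single tissue of the pair were rare. Of the 19656 genes, 110 had 10 or more reads in each root library and none in leaf, and 156 had 10 or more in each leaf library and none in root. Their median level was 2.85 FPKM for the root genes and 4.32 FPKM for the leaf genes. The strongest of the root genes was row 30568. The strongest of the leaf genes was row 10985 (462 bases), with no read in root, against 170, 149 and 189 FPKM in leaf. A count of 0 over the 3 root libraries allows up to 3 reads, so leaf was at least 2167-fold higher for row 10985.

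The minimum level decided how genes entered the comparison. In all 6 libraries 1 FPKM or more was reached by 16368 genes, of which 3123 were called higher in root and 2029 higher in leaf. Another 971 genes reached it in the 3 root libraries and no leaf library, and 850 of these were called higher in root. Likewise 1166 genes reached it in the 3 leaf libraries and no root library, and 1082 were called higher in leaf. Genes of these last 2 kinds could hardly fail to differ, and their counts support nothing. Just inside the minimum were rows 23384 and 1600, whose 3 highest values went down to 1.0006 and 1.0014 FPKM, and just outside rows 9079 and 11948, at 0.99952 and 0.99985 FPKM.

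Neighbouring rows of the table, whose order has no stated basis, were called in the same and in opposite directions. Of 13477 neighbouring pairs of rows that were both compared, 2202 were both called. In 802 of them both were higher in root, in 489 both were higher in leaf and in 911 the directions were opposite. Thus 58.6% shared a direction, but the share over random pairs of called genes was not counted. With 55.5% of all calls higher in root, many such pairs would share a direction too. The row after a gene higher in root was itself higher in root in 27.8% of pairs, against 21.6% of all genes compared. The row after a gene higher in leaf was higher in leaf in 21.4% of pairs, against 17.3% of all genes. These shares carry no test. The longest stretch was rows 30566 to 30573, 8 rows all called higher in root. It holds row 30566, row 30568 and row 30572, with root means of 158, 144 and 431 FPKM, and row 30573 (992 bases), at 221 ± 2.47 FPKM in root and 41 ± 2.17 FPKM in leaf (SD, n = 3 each). Its lowest level in root was that of row 30567, at 4.08, 3.21 and 2.45 FPKM in root and no read in leaf. Its smallest difference, 1.20, was that of row 30570, at 33.6 ± 2.83 FPKM in root and 14 ± 1.46 FPKM in leaf (SD, n = 3 each).

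On the leaf side the longest stretch was rows 14513 to 14518, 6 rows all called higher in leaf. Row 14514 (795 bases) had 0.317, 1.06 and 1.21 FPKM in root, against 709, 702 and 716 FPKM in leaf. Row 14517 (816 bases) had 0.0441, 0.281 and 0.966 FPKM in root, against 516, 505 and 505 FPKM in leaf. Leaf means over the stretch ran from 86.9 FPKM in row 14513 to 2261 FPKM in row 14518, and no root mean exceeded 2.21 FPKM. In flower none of the 6 averaged above 3.66 FPKM. These stretches were singled out after their values were seen and carry no test.

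Stem and flower libraries had no part in choosing the genes and show where they stood in other organs. Genes called higher in root had a median of 14.7 FPKM in stem and 6.27 FPKM in flower. Genes called higher in leaf had a median of 10.7 FPKM in stem and 4.63 FPKM in flower. The genes higher in leaf took 17.8% ± 0.0801 of FPKM in stem and 23% ± 1.02 in flower, and those higher in root 26.7% ± 0.0601 in stem and 21.1% ± 0.854 in flower (SD, n = 3 each). By limma on the 3 stem and 3 flower libraries, 40.5% of the 19656 genes were called higher in stem and 13.4% higher in flower.

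Root-higher and leaf-higher genes were close to each other in this second comparison. Of the genes higher in root, 1838 (43.3%) were called higher in stem and 735 (17.3%) higher in flower. Of the genes higher in leaf, 1445 (42.4%) were called higher in stem and 642 (18.8%) higher in flower. Both lie near the 40.5% of all genes for stem, while both flower shares lie above the 13.4% of all genes. Among genes that differed between root and leaf by 4 or more, 409 of 696 on the leaf side (58.8%) were higher in stem, and 141 of 285 on the root side (49.5%). Of the same genes, 123 on the leaf side (17.7%) and 55 on the root side (19.3%) were higher in flower. With median-ratio scaling the share of all stem and flower calls that were higher in stem was 56.6% in place of 75.1%, so these percentages also move with the scale.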

How the data were processed

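RNA-seq values of 3 root and 3 leaf libraries were analysed, with 3 stem and 3 flower libraries beside them. The authors deposited FPKM values in 1 table. Tools named in the submitters' processing notes are HISAT2, HTSeq, fastp and R 3.2.0, with no role or order. The build, the annotation and the strandedness are not given in these sources. Columns were matched to libraries by title. Since FPKM divides by the library total, a rise in some abundant genes lowers every other value.

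Within a row, FPKM values step by the worth of 1 read. Library totals, row lengths and reads were recovered from this, within 0.01 reads for 100% of the 26625 rows above 0. A length recovered from few reads can be too short. Intervals and limits from reads cover counting error only.

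The main test was limma 3.58.1 in R 4.3.3 with a mean-variance trend on log2(FPKM + 1) over the 6 libraries, which leaves 4 residual degrees of freedom, with Benjamini-Hochberg adjustment over 19656 genes. Calls had a difference of 1 or more with an adjusted p under 0.05. The fit was also run on simulated data in which few genes changed, equally in both directions, without the shift between tissues seen here. That run therefore says nothing about the scaling. Stem and flower were fitted alike.

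Named genes are the 12 called genes with the largest difference in each direction and no overlap between tissues, the 5 highest in each tissue, the 4 least different of at least 100 FPKM, and the 3 most different in each direction of at least 10 FPKM in the lower tissue. Rows 10985, 14513 to 14517, 30567, 30570 and 30573 and both stretches of neighbouring rows were chosen after their values were seen. The comparison, the gene rule and the tests were chosen with earlier results of these data known.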

Additional observations from a re-analysis of the deposited data

How the results depend on the processing

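The 32 named genes that were called kept their direction and their call in all 480 values under the alternatives run. They were mostly picked as the largest differences or the highest levels, so this says little of others. Of the 6 named genes not called, 5 changed sign in at least 1 alternative. Row 26099 (0.30) was -0.06 with median-ratio scaling, and the 4 genes picked for the smallest difference ran from -0.37 to 0.05. Rows 26099 and 5282 (0.89) pass when no minimum difference is asked. Median-ratio scaling turned the majority of calls from root to leaf, with a share higher in root of 41.3%. An adjusted p alone called 16067 genes, 10423 higher in root and 5644 higher in leaf. Without a filter on low values, 7339 genes lay within 0.5 and 14974 within 1. Genes higher in leaf of at least 100 FPKM held 1.95% of root and 36.6% of leaf FPKM. With calls made without root replicate 3, the leaf-higher genes numbered 3425 in place of 3407 and held 46.3% of leaf FPKM, close to 46.1%. The leaf libraries were the same and only the set of genes changed. The SD of 0.0659 between libraries, which this step exceeds, does not measure such a change. Other counts of calls between root and leaf, from 5910 (limma treat) to 8612 (limma voom on recovered reads), stayed within 1.5 times.

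Leaving out each library in turn gave 7641 to 7671 called genes. Deviations of same-numbered root and leaf libraries from their tissue means were nearly uncorrelated (0.012, 0.008 and 0.021). The labels do not say whether the numbers pair libraries, and these values cannot settle it. With replicate number as a block, 7652 genes were called, and 10599 between stem and flower. Between stem and flower, leaving out a library gave 10568 to 10692 calls. A gene with no read over the libraries of a tissue may still be at up to 3 reads there, which limits the low genes.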
